A study of Mus musculus with 12 samples.

Results

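The genes described here are the mitochondrial ribosomal protein genes of mouse liver, chosen by name alone: every gene whose symbol starts with Mrpl or Mrps followed by a number, with symbols that mark a pseudogene (6 of them) left out. The rule gave 78 of the 55291 genes in the count table, 49 named for the large subunit (Mrpl) and 29 for the small subunit (Mrps). All 78 are protein coding in the GENCODE M21 annotation, at the same mm10 coordinates as in the table, and they lie on 17 chromosomes.

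The libraries came from liver of male C57BL/6 mice that entered the study at 6 weeks of age. Both exercised groups, HFD+RE and HFD+AE, ate the high-fat diet (D12492) for 8 weeks and then trained for at least 12 weeks while still on it. The HFD group ate that diet without training and the NC group a normal one, and no group carried an engineered allele as far as the labels say. For HFD and NC, 8 weeks of diet and 0 weeks of exercise are recorded. Age and total time on diet at sampling are not among the values used here. A difference in them between exercised and other groups was not tested. RE and AE are given only as abbreviations, which in exercise studies usually stand for resistance and aerobic exercise. Each group had 3 libraries, numbered 3, 4 and 5 in HFD+RE, 1, 2 and 3 in HFD+AE, 1, 2 and 3 in HFD, and 2, 4 and 5 in NC. Whether the 3 libraries of each group represent 3 mice is not stated in the labels; a p-value here speaks of the spread among these libraries alone, part of which may be technical.

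Mitochondria carry their own ribosome, the mitoribosome, which makes the few proteins still encoded by mitochondrial DNA, all of them core parts of the respiratory chain and ATP synthase. Its RNAs are made inside the mitochondrion, whereas every protein of it is encoded in the nucleus in mammals, made in the cytosol and imported. The small subunit reads the mRNA; the large subunit forms the peptide bonds and, at its exit tunnel, hands the new chain to the inner membrane. In liver, a tissue dense in mitochondria, these genes are active throughout, and the transcription factors NRF1, the ETS factor GABPA and YY1 are known to bind promoters of many of them.

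Promoter sequence is shown for 5 genes because the letters bound by those 3 factors recur among these promoters and because the results below turn on these genes. RefSeq (GRCm38.p6) gave a promoter of 300 bases, 250 before and 50 from the start of transcription, for 69 of the 78 genes. Mrpl27 rose with the smallest p-value in HFD against NC livers and Mrpl45 with the next; Mrpl12 had the highest level of all; Mrps22 and Mrps18b fell. The windows are chr11:94653541-94653840 (plus strand) for Mrpl27, chr11:97315466-97315765 (plus) for Mrpl45, chr11:120484387-120484686 (plus) for Mrpl12, chr9:98601630-98601929 (minus) for Mrps22 and chr17:35916391-35916690 (minus) for Mrps18b. Each is written 5′ to 3′ on the gene's strand, with capitals where a motif was matched on either strand.
Mrpl27: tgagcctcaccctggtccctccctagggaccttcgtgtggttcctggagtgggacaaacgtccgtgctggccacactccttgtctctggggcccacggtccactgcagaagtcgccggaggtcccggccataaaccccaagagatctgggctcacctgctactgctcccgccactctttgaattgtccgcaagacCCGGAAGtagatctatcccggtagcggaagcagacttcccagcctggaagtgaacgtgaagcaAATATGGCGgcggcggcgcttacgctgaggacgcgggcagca
Mrpl45: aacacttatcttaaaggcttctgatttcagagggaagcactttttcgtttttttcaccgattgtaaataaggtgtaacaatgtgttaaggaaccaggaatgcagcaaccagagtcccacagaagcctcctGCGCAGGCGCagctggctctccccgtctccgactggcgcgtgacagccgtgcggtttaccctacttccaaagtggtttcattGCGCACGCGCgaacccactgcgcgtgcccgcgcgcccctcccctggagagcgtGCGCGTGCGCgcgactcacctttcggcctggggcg
Mrpl12: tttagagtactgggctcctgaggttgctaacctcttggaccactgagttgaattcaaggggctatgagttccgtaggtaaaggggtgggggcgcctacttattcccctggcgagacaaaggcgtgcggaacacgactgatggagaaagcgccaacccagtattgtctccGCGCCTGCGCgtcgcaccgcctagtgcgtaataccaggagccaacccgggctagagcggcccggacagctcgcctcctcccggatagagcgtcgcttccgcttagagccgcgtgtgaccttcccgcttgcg
Mrps22: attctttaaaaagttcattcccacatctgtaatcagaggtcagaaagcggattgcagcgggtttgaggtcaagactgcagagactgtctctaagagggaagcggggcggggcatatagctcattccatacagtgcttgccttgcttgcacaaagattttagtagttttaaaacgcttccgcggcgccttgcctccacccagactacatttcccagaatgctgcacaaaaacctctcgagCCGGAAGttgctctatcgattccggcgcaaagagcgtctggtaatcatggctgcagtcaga
Mrps18b: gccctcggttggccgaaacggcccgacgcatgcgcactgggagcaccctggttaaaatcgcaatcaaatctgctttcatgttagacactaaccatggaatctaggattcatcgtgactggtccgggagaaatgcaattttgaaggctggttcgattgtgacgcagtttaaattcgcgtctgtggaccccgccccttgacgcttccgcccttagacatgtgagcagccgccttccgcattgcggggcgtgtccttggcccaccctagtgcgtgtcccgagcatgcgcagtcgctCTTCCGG
In Mrpl27 the first capitals are an ETS match 55 bases before the start (offset -55) and the second a YY1 match at offset 8, counting the start base as 0. Mrpl45 held 3 NRF1 matches, at offsets -120, -38 and 15, and Mrpl12 held 1, at -81. Mrps22 had an ETS match at -11 and Mrps18b one at 43, where the window ends, read on the other strand. Offsets are from the RefSeq start, which is not always the first base of the gene in the count table. The Mrps18b window lies wholly upstream of the gene as counted, which begins at 35916389 on the minus strand.

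The motifs searched, on both strands, were GCGC and TGCGC with any 1 base between them for NRF1, CCGGAAG for ETS factors and AANATGGCG for YY1, and no pair of them shared bases in any of the 69 promoters. The NRF1 letters were found in 13 of the 69 (18.8%), against 4.78% of all 27025 RefSeq promoters of the same length. The ETS letters were found in 25 (36.2%, against 9.12%) and the YY1 letters in 11 (15.9%, against 2.51%), while 28 (40.6%, against 85.3%) held none of the 3. Among the 43 large-subunit promoters, 10 had the NRF1 letters and 14 the ETS letters, and among the 26 small-subunit promoters 3 and 11. Of the 10 genes that rose in HFD against NC livers, 8 had a promoter in the table, 3 of them with the NRF1 letters, 4 with ETS and 2 with YY1. Of the 3 that fell, all had a promoter, 0 with NRF1, 2 with ETS and 0 with YY1, and of the 57 promoters of genes that did not pass, the counts were 10, 18 and 9. A match is a description of the sequence and does not show that a factor binds there.

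Libraries held 44373214 to 77665729 counts, and Alb, the albumin gene that defines hepatocytes, took 4.25% to 9.82% of them, with the other hepatocyte markers also high in all 12 libraries. The libraries HFD+AE 3 and HFD+RE 3 stood apart from the others of their groups. On the first principal component of all tested genes HFD+AE 3 was at 14, against -40.4 and -36.9 for HFD+AE 1 and 2. HFD+RE 3 was at -36.6, against 50.4 and 52.6 for HFD+RE 4 and 5, while the HFD libraries lay at 23 to 80.8 and the NC libraries at -72.7 to -40.2. Results that rest on these libraries are given with and without them. They were chosen for standing apart in these same data, and without them each exercised group has 2 libraries.

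Of the 78 genes, 77 had enough counts to be tested among 18305 genes. The one left out, Mrpl53, is on record as a large-subunit gene but had 0 counts in 11 libraries and 2 counts in NC 5, and 88.0% of its exon bases also belong to Gm42688 on the same strand. Among the tested genes the level per length, as the mean FPKM over the 12 libraries, ran from 1.13 for Mrpl33 to 69.8 for Mrpl12, with a median of 9.14. In every library the median FPKM of the large-subunit genes, 8.5 to 14.9, was above that of the small-subunit genes, 4.9 to 8.33, and both were above the median of all tested genes, 1.39 to 1.54. Exons of 27 of the 78 genes overlap those of a gene on the opposite strand and exons of 8 those of a gene on the same strand. The overlap is over 10% of the exon bases in 17 genes and over 50% in 3 (Mrpl53, Mrps25 and Mrps34, chosen for their overlap).

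The summed level of these genes split the exercised groups. Large-subunit genes summed to 1104, 1994 and 1870 CPM in HFD+RE 3, 4 and 5, to 1111, 1149 and 1648 CPM in HFD+AE 1, 2 and 3, to 1595, 1461 and 1736 CPM in HFD 1, 2 and 3, and to 1105, 1091 and 1218 CPM in NC 2, 4 and 5. Thus all 3 HFD libraries were above all 3 NC libraries, whereas HFD+RE 3 lay with the NC libraries and HFD+AE 3 with the HFD libraries. Small-subunit genes summed to 514, 899 and 824 CPM in HFD+RE, to 500, 524 and 773 CPM in HFD+AE, to 713, 669 and 765 CPM in HFD and to 526, 516 and 574 CPM in NC, in the same order of libraries. The large-to-small ratio of summed CPM was 2.15, 2.22 and 2.27 in HFD+RE, 2.22, 2.19 and 2.13 in HFD+AE, 2.24, 2.19 and 2.27 in HFD and 2.1, 2.11 and 2.12 in NC libraries. It was thus higher in every HFD than in every NC library, which was not tested.

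**Figure D1:**
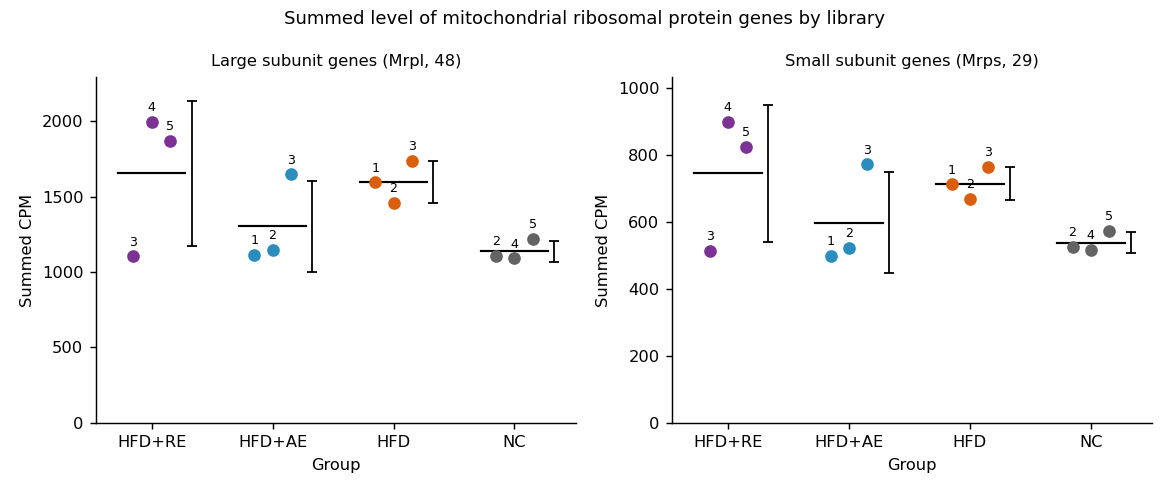
Summed CPM of the 48 tested large-subunit and 29 small-subunit genes in each library (points, with library numbers); lines are group means and bars the SD (n = 3). The HFD libraries lie above the NC libraries, and HFD+AE 3 and HFD+RE 3 lie away from the other libraries of their groups.

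As group means, the large-subunit sum was 1656 ± 482 CPM in HFD+RE, 1303 ± 300 CPM in HFD+AE, 1597 ± 137 CPM in HFD and 1138 ± 69.5 CPM in NC livers (SD, n = 3 each). The small-subunit sum was 745 ± 204, 599 ± 151, 715 ± 48 and 539 ± 30.9 CPM in the same groups. Gene by gene, 10, 71 and 70 of the 77 genes were above their own mean of the 12 libraries in HFD+RE 3, 4 and 5, and 5, 8 and 61 in HFD+AE 1, 2 and 3. The counts were 63, 58 and 60 in the HFD and 12, 10 and 20 in the NC libraries. The difference between libraries of an exercised group ran through most of the family.

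**Figure D2:**
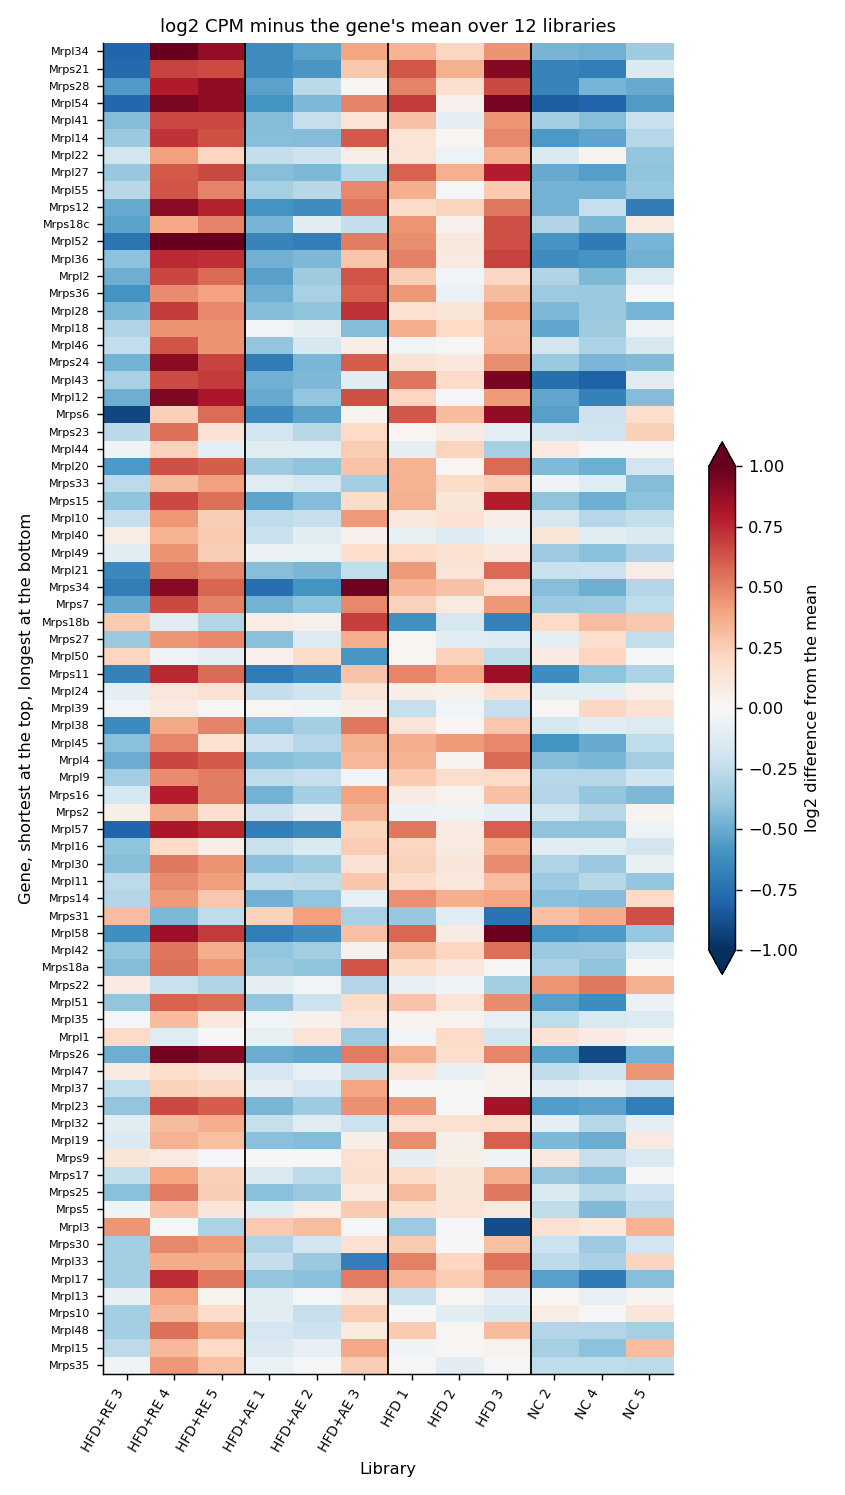
Level of each of the 77 tested genes (rows, shortest gene at the top) in each library (columns, groups divided by lines), as log2 CPM minus the gene's mean over the 12 libraries; red is above and blue below that mean. Most rows are red in HFD+RE 4 and 5, HFD+AE 3 and the HFD libraries. A few rows, among them Mrps31 and Mrps22, are blue there, as is Mrps18b except in HFD+AE 3.

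In bulk liver, fewer cells of a type and less RNA per cell cannot be told apart. The summed CPM of 7 hepatocyte markers was 93000 to 117000 in HFD+RE, 110000 to 121000 in HFD+AE, 62000 to 89200 in HFD and 116000 to 130000 in NC libraries, so HFD was below NC without overlap. For 12 lymphocyte markers it was 5.90 to 8.87, 3.40 to 8.59, 7.69 to 42.8 and 3.94 to 9.88 CPM, and for 8 stellate cell markers 216 to 321, 255 to 261, 263 to 362 and 138 to 157 CPM in the same groups. The stellate range in HFD was wholly above that in NC, while the lymphocyte ranges overlapped. For 8 endothelial markers it was 92.2 to 252, 195 to 334, 100 to 168 and 232 to 293 CPM, with HFD wholly below NC. For 8 Kupffer cell and macrophage markers it was 52.2 to 324, 216 to 325, 92.2 to 223 and 204 to 347 CPM, for 6 erythroid markers 148 to 384, 126 to 328, 273 to 495 and 160 to 301 CPM, and for 6 cholangiocyte markers 25.4 to 34.7, 21.1 to 36.1, 34.2 to 52.5 and 25.9 to 40.3 CPM. The HFD and NC ranges of these lists overlapped. For 7 neutrophil markers it was 2.78 to 9.15, 2.66 to 3.69, 7.69 to 14.6 and 4.52 to 6.10 CPM, with HFD wholly above NC. The 6 skeletal muscle markers stayed at or below 1.36 CPM in sum. No marker of these lists was at 0 in all libraries. In HFD against NC livers, 6 of the 12 lymphocyte and 5 of the 8 stellate markers rose, and 2 of the 7 hepatocyte, 2 of the 8 endothelial and 1 of the 6 erythroid markers fell. The erythroid marker that fell was Alas2. The other 5 of that list, the globins among them, had log2 changes above 0 and did not pass (median of the list 1). Of all genes tested, 15.6% were called in that comparison. No Kupffer cell, cholangiocyte, neutrophil or muscle marker passed by edgeR. However, only 5 of the 6 cholangiocyte, 5 of the 7 neutrophil and 1 of the 6 muscle markers had enough counts to be tested. The part of these cell types in the results below was not tested.

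The high-fat diet was compared with the normal diet first. In HFD against NC livers 10 of the 77 genes rose and 3 fell, while 64 did not pass (edgeR quasi-likelihood test, Benjamini-Hochberg adjusted over 18305 genes, threshold 0.05). That is 16.9% of the family, against 15.6% of all genes tested (8.38% higher, 7.19% lower), a share near the background and so no result about the family. The direction was less even: the log2 change was above 0 for 65 of the 77 genes (84.4%, against 50.7% of all genes), with a median of 0.52, against 0.01 for all genes. The groups did not overlap for 58 genes (75.3%, against 46% of all genes), 53 higher and 5 lower in HFD livers (23.9% and 22.1% of all genes), and 41 had an unadjusted p below 0.05 (34.7% of all genes did). Among large-subunit genes 7 rose and 0 fell of 48 (median log2 change 0.52), and among small-subunit genes 3 rose and 3 fell of 29 (median 0.49).

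The count of calls depended on single libraries, and so did that of all genes. It was 0 without NC 2, NC 4, HFD 1 or HFD 3, when 4.96%, 3.06%, 2.6% and 2.21% of all genes were called. It was 6 (7.79% of the family, against 11% of all genes) without NC 5 and 15 (19.5%, against 18.8%) without HFD 2. Both shares moved together in these fits. Without HFD+AE 1, 2 and 3 it was 8, 7 and 20 (10.4%, 9.09% and 26%, against 12.7%, 11.3% and 20.1% of all genes). Without HFD+RE 3, 4 and 5 it was 36, 12 and 11 (46.8%, 15.6% and 14.3%, against 23.5%, 13.9% and 14.8%). Without both HFD+AE 3 and HFD+RE 3 it was 56 (72.7%, against 33.1%). Of the 13 genes called, 0 kept the call when each NC or HFD library was left out in turn. The median log2 change of the family moved less, between 0.46 and 0.60 when any 1 library was left out.

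**Figure D3:**
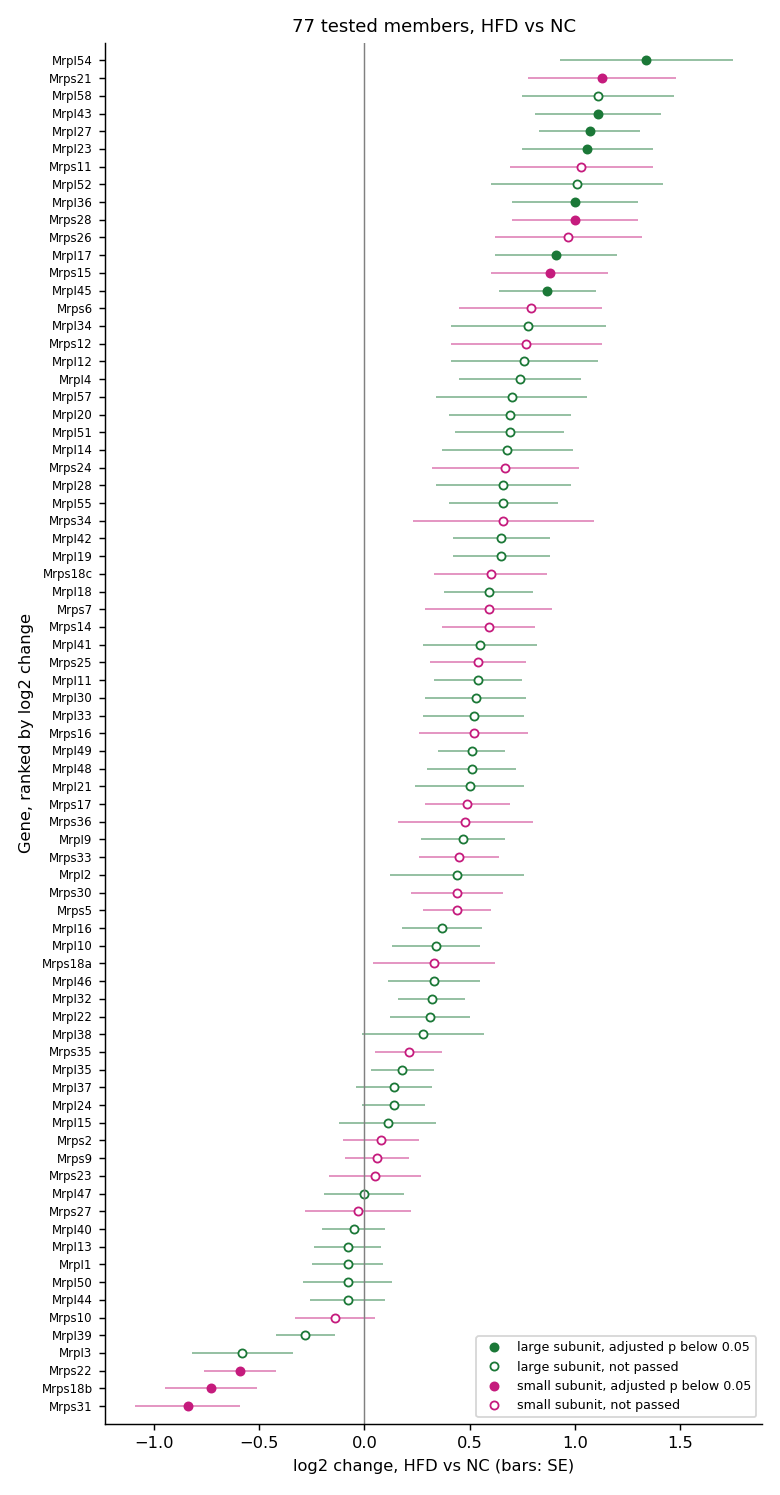
log2 change in HFD against NC livers for the 77 tested genes, ranked, with SE as bars; filled points passed at an adjusted p below 0.05. Values run from -0.84 for Mrps31 to 1.34 for Mrpl54, 65 of 77 above 0.

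Of the large-subunit genes that rose, 4 are given first. Mrpl27, on chromosome 11 (94653767 to 94660089, plus strand), encodes a protein near the peptidyl transferase centre. It had 44.1, 37.5 and 50.7 CPM in HFD 1, 2 and 3, against 20.7, 20 and 22.2 CPM in NC 2, 4 and 5. The groups were far apart, with every HFD library well above every NC library, and the log2 change was 1.07 (SE 0.24, adjusted p = 0.015). Mrpl45, also on chromosome 11 (97315716 to 97329920, plus strand), encodes the protein at the tunnel exit that anchors the ribosome to the inner membrane. It had 34.0, 35.4 and 36.9 CPM in HFD, against 17.4, 18.6 and 22.1 CPM in NC libraries, again without overlap (log2 change 0.87, SE 0.23, adjusted p = 0.028). Mrpl23, whose protein lies at the tunnel exit too (chromosome 7, 142532686 to 142540747), had 29.0, 21.2 and 38.0 CPM in HFD, against 14.5, 14.7 and 13.2 CPM in NC libraries. Its HFD libraries were above but spread widely (1.06, SE 0.31, adjusted p = 0.038). Mrpl17, another protein of the exit region (chromosome 7, 105803206 to 105811099), had 59.9, 56.1 and 64.4 CPM in HFD, against 32.3, 28.8 and 35.0 CPM in NC libraries, with a log2 change of 0.91 (SE 0.29, adjusted p = 0.048).

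Mrpl54, of the large subunit, on chromosome 10 (81264713 to 81266934, minus strand), had the largest log2 change of the family. It had 24.8, 15.7 and 29.5 CPM in HFD, against 8.61, 8.81 and 10.3 CPM in NC libraries. All HFD libraries were above all NC libraries, HFD 2 by the least, and the change was 1.34 (SE 0.41, adjusted p = 0.043). Mrpl36, counterpart of a small bacterial large-subunit protein (chromosome 13, 73328513 to 73332178), had 29.2, 21.9 and 32.9 CPM in HFD, against 13.4, 13.7 and 14.8 CPM in NC libraries (1, SE 0.30, adjusted p = 0.039). Mrpl43 (chromosome 19, 45004829 to 45006442) had 11.3, 8.91 and 15.1 CPM in HFD, against 4.63, 4.46 and 7.28 CPM in NC libraries. It did not overlap between groups either (1.11, SE 0.30, adjusted p = 0.029), but 33.4% of its exon bases are shared with Twnk, the mitochondrial DNA helicase gene, on the other strand. The strand setting of the counting is not given in the sources used here, so reads of the 2 genes cannot be told apart. The same holds for 7.61% of Mrpl27 (Eme1) and 2.58% of Mrpl36 (Ndufs6).

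Of the small-subunit genes, Mrps21, Mrps28 and Mrps15 rose. Mrps21, whose bacterial relative is a small protein of the subunit's platform (chromosome 3, 95862634 to 95871519), had 48.7, 40.5 and 59.8 CPM in HFD, against 19.9, 19.6 and 28.6 CPM in NC libraries. The HFD libraries were above throughout, NC 5 being the highest of the NC libraries (1.13, SE 0.35, adjusted p = 0.047). Mrps28, a small-subunit protein (chromosome 3, 8802146 to 8923918), had 21, 16.7 and 23.6 CPM in HFD, against 9.39, 10.8 and 10.5 CPM in NC libraries (1, SE 0.30, adjusted p = 0.043). Mrps15, an early-binding protein of the bacterial small subunit by its homologue (chromosome 4, 126046925 to 126055532), had 28.6, 24.2 and 38.5 CPM in HFD, against 16.9, 15.9 and 16.8 CPM in NC libraries (0.88, SE 0.28, adjusted p = 0.048). Neither Mrps28 nor Mrps15 overlapped between the groups, and the NC libraries lay close together.

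The 3 genes that fell carry small-subunit names. In all, 12 of the 77 genes had a log2 change below 0, among them the large-subunit genes Mrpl3 (-0.58, adjusted p = 0.11) and Mrpl39 (-0.28, adjusted p = 0.17), whose groups did not overlap either. Mrps22, a protein of the mitochondrial small subunit with no bacterial homologue (chromosome 9, 98588730 to 98601660), had 14.2, 14.7 and 11.9 CPM in HFD, against 20.4, 21.7 and 19.3 CPM in NC libraries. Every HFD library was below every NC library (log2 change -0.59, SE 0.17, adjusted p = 0.034), and the exercised libraries, at 12.2 to 15.9 CPM, were below the NC libraries too. Mrps31, likewise specific to mitochondrial ribosomes (chromosome 8, 22411361 to 22429665), had 15.5, 18.6 and 12.1 CPM in HFD, against 24.9, 26.1 and 31.6 CPM in NC libraries (-0.84, SE 0.25, adjusted p = 0.039). Mrps18b, 1 of 3 mammalian homologues of bacterial S18 (chromosome 17, 35910379 to 35916389), had 7.67, 10.4 and 7.32 CPM in HFD, against 13.4, 14.5 and 14.1 CPM in NC libraries. Its groups did not overlap (-0.73, SE 0.22, adjusted p = 0.044), and 30.5% of its exon bases are shared with Gm16279 on the other strand, which the counts may not keep apart.

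**Figure D4:**
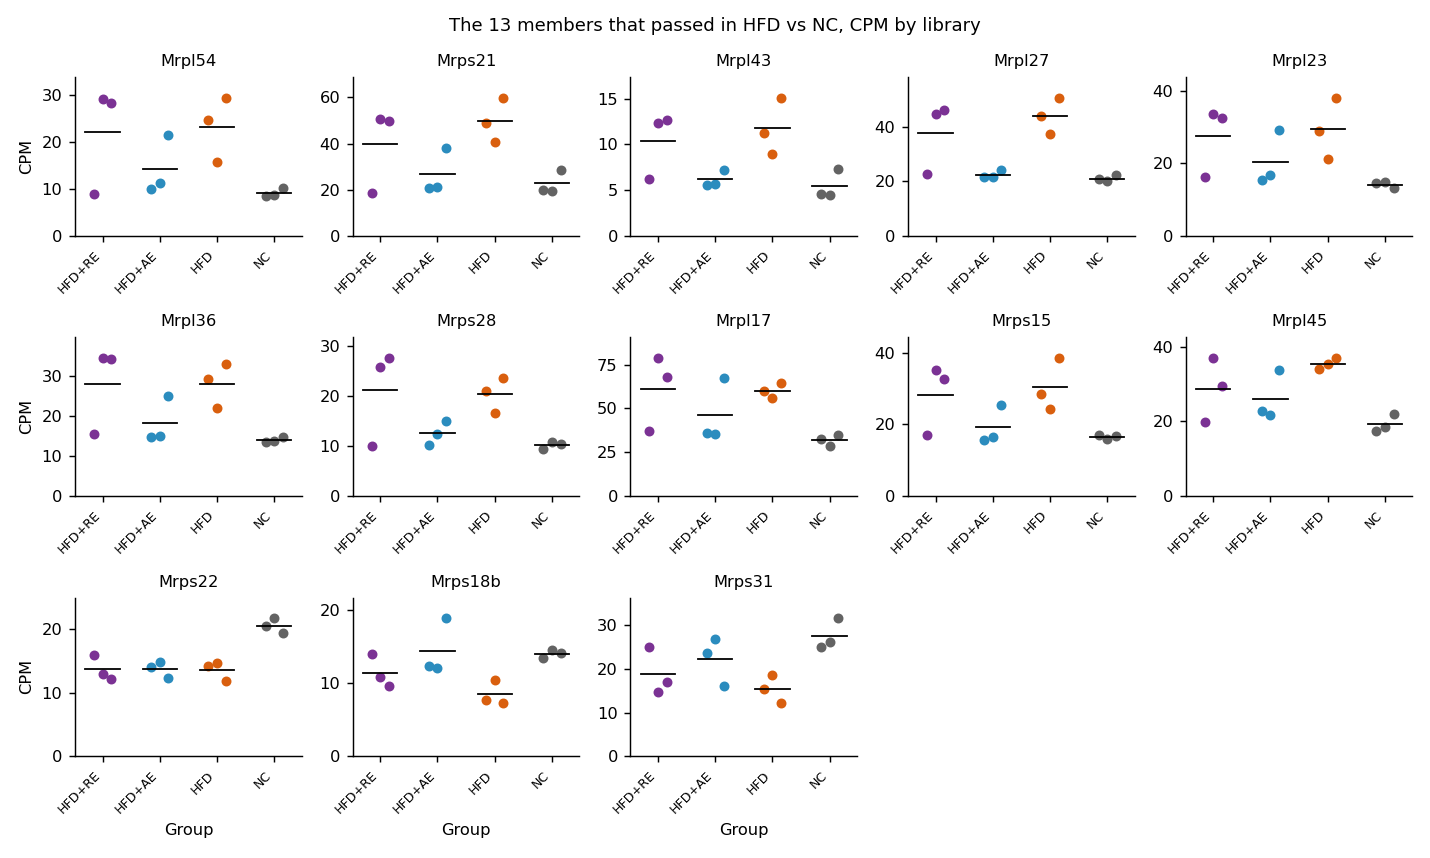
CPM in each library (points, with group means as lines) of the 13 genes that passed in HFD against NC livers, 10 higher and 3 lower in HFD. In most panels of higher genes HFD+RE 3 lies near the NC libraries and HFD+AE 3 above the other HFD+AE libraries; Mrpl27 is flat across HFD+AE.

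The 3 homologues of S18 had log2 changes of both signs. Besides Mrps18b, which fell, Mrps18c had 8.82, 6.67 and 10.1 CPM in HFD, against 5.26, 4.72 and 6.90 CPM in NC libraries. HFD 2 was below NC 5, so these groups overlapped (0.60, SE 0.27, adjusted p = 0.14). Mrps18a, whose protein sits in the large subunit despite its name, had a log2 change of 0.33 (SE 0.29, adjusted p = 0.43). Mrps30, also a large-subunit protein by structure, had one of 0.44 (SE 0.22, adjusted p = 0.16), and Mrps36, known as a component of the 2-oxoglutarate dehydrogenase complex, one of 0.48 (SE 0.32, adjusted p = 0.29). None of these 4 passed.

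The stalk of the large subunit, which recruits translation factors, is built of Mrpl12 on Mrpl10 and Mrpl11. Mrpl12 had 115, 98.0 and 133 CPM in HFD 1, 2 and 3, against 69.0, 61.9 and 73.1 CPM in NC 2, 4 and 5. The groups did not overlap, yet it did not pass (log2 change 0.76, SE 0.35, adjusted p = 0.14). In the exercised groups, which share the estimate of spread, it had 70.6, 189 and 174 CPM in HFD+RE 3, 4 and 5 and 69.8, 75.1 and 154 CPM in HFD+AE 1, 2 and 3. Mrpl10 had a log2 change of 0.34 (SE 0.21, adjusted p = 0.27) and Mrpl11 one of 0.54 (SE 0.21, adjusted p = 0.087). Mrps12, the decoding-centre protein, had one of 0.77 (SE 0.36, adjusted p = 0.14). Mrpl58, a peptidyl-tRNA hydrolase that frees stalled ribosomes, had 33, 23.4 and 43.6 CPM in HFD, against 14.6, 14.9 and 17.0 CPM in NC libraries. It lay just outside the threshold (1.11, SE 0.36, adjusted p = 0.054). Mrpl44, a large-subunit protein with a ribonuclease-like fold, had a log2 change of -0.08 (SE 0.18, adjusted p = 0.78).

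Gene length went with these changes in this family and in all genes. The exon length in the table ran from 607 bases for Mrpl34 to 8631 for Mrps35, with a median of 2394 (2533 in the large and 2172 in the small subunit), against 3548 for all tested genes. Mrpl34 had 31.3, 28.5 and 33.6 CPM in HFD, against 17.8, 17.6 and 19.2 CPM in NC libraries (log2 change 0.78, adjusted p = 0.16), and Mrps35 had 25.5, 23.5 and 25 CPM in HFD, against 21.3, 21.3 and 21.2 CPM in NC libraries (0.21, adjusted p = 0.36). Neither overlapped between the groups, and neither passed. The 10 genes that rose were 739 to 7605 bases long with a median of 1340.5, and the 3 that fell 2089 to 3991 with a median of 3291. Across genes, which are not independent replicates and share the same libraries, the rank correlation of log2 change with length was -0.40 over the 77 genes and -0.25 over all 18305. It was -0.33 in the large and -0.51 in the small subunit.

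With all tested genes split into 5 length bins of equal size, the median of the family was above that of all genes in every bin. In HFD against NC livers the median log2 change of all genes was 0.43 in the shortest bin (up to 1556 bases), then 0.23, 0.03, -0.10 and -0.27 in the longest (6653 bases and over). The family's medians were 0.72 over 22 genes, 0.45 over 21, 0.52 over 15, 0.47 over 10 and 0.21 over 9. All 22 genes of the shortest bin had a log2 change above 0 (64.4% of all genes there), and 6 of them rose, while 1 rose in each of the longest 2 bins (16.2%, 14.8% and 17.6% of all genes in these 3 bins were called in either direction).

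**Figure D5:**
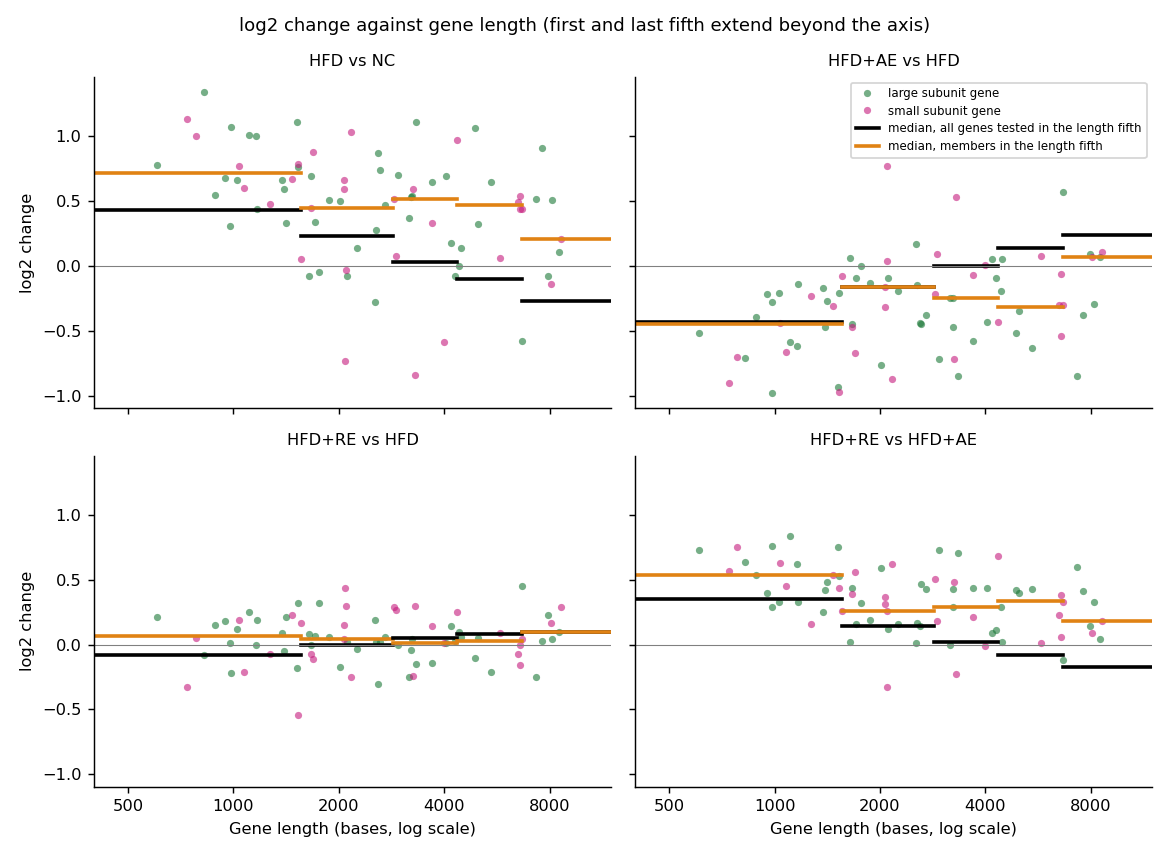
log2 change of each gene (points) against its exon length on a log axis, in the 4 comparisons; lines give the median of all tested genes (black) and of the family (orange) in each length bin. In HFD against NC the black steps go down from 0.43 to -0.27 and the orange ones from 0.72 to 0.21; in HFD+AE against HFD the black steps go up.

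With the length trend of each library removed from the counts, 8 genes (10.4%, against 14.1% of all genes) were called in HFD against NC livers, 7 of them among the 13. Mrpl27 (log2 change 0.71, SE 0.18), Mrpl45, Mrpl43 and Mrpl23 rose, and Mrps22 (-0.63, SE 0.16), Mrps31, Mrps18b and Mrpl39 (-0.47, SE 0.15) fell. The adjusted p was 0.024 for Mrpl27 and 0.023 for Mrps22, within ranges of 0.00046 to 0.076 and 0.0047 to 0.16 over all 21 alternatives. Mrpl39, of the large subunit, had 29.3, 33.7 and 29.2 CPM in HFD, against 34.6, 39.6 and 37.9 CPM in NC libraries, and without the correction its log2 change was -0.28 (adjusted p = 0.17). The other 6 no longer passed. Of these, Mrpl17 had a log2 change of 1.09 (SE 0.35, adjusted p = 0.051), against 0.91 without the correction, and Mrpl54 one of 0.95 (SE 0.34, adjusted p = 0.073), against 1.34. Mrpl36, Mrps21, Mrps28 and Mrps15 had log2 changes of 0.65, 0.75, 0.61 and 0.59, with adjusted p-values of 0.078, 0.086, 0.1 and 0.098. A lost call here does not show that the change of a gene went with its length. The family's median was then 0.34, against -0.03 for all genes, its rank correlation with length 0.05, and 62 of 77 genes were still above 0. With GC content removed as well the median was 0.32 and 10 genes were called (13%, against 18.4% of all genes).

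The libraries themselves differed in how level went with length. These values cover all 18305 tested genes and not the family alone. The rank correlation of a gene's level, relative to its own mean, with length was 0.22, -0.29 and -0.31 in HFD+RE 3, 4 and 5. It was 0.29, 0.29 and -0.03 in HFD+AE 1, 2 and 3. It was -0.26, -0.15 and -0.29 in HFD and 0.20, 0.21 and 0.08 in NC libraries. The libraries with a high summed level of the family thus had the lower values over all tested genes, HFD+AE 3 being the nearest to 0 among them. With GC content, known for 98.1% of the tested genes, the values were -0.22, 0.33 and 0.18 in HFD+RE and -0.29, -0.24 and 0.49 in HFD+AE. They were 0.03, -0.07 and 0.06 in HFD and -0.15, -0.13 and -0.21 in NC. Their part in the family's changes was not tested beyond the fits with these trends removed.

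AE exercise on the high-fat diet was compared with the HFD group next. No gene of the family passed in HFD+AE against HFD livers by edgeR, where 0.0492% of all genes did, and 20 had an unadjusted p below 0.05 (26.4% of all genes did); DESeq2 called 6, when it called 12.1% of all genes. The log2 change was below 0 for 61 of the 77 genes, with a median of -0.29, against 0 for all genes, 50.2% of which were above 0. Groups did not overlap for 18 genes (23.4%, against 32% of all genes), 17 of them lower in HFD+AE (16.3% of all genes). Without HFD+AE 3 the median was -0.55. Without HFD+RE 3, which belongs to neither group but to the shared estimate of spread, 11 genes (14.3%, against 10.2% of all genes) were called, and without HFD 2 it was 3 genes (3.9%, against 8.93%). Leaving out both HFD+AE 3 and HFD+RE 3 gave 48 (45 lower), when 22.5% of all genes were called.

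Mrpl27 was the gene with the lowest value in this comparison and was near the level of the other HFD+AE libraries in HFD+AE 3 too. It had 21.8, 21.5 and 24.1 CPM in HFD+AE 1, 2 and 3, against 44.1, 37.5 and 50.7 CPM in HFD 1, 2 and 3. The groups did not overlap (log2 change -0.98, SE 0.23), the adjusted p being 0.061, and HFD+AE lay at about the level of NC. Mrps18b had the highest value, 12.3, 12.1 and 18.9 CPM in HFD+AE, against 7.67, 10.4 and 7.32 CPM in HFD libraries (0.77, SE 0.22, adjusted p = 0.073). By DESeq2 the adjusted p was 0.006 for Mrpl27 and 0.023 for Mrps18b. Over the 21 alternatives it ran from 0.0039 to 0.29 for Mrpl27, with log2 changes of -1.08 to -0.60, and from 0.023 to 0.31 for Mrps18b, with log2 changes of 0.53 to 0.99. The HFD libraries are shared with the comparison against NC, so signs in these comparisons are not independent.

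Over all genes, length ran the other way here. From the shortest to the longest bin, all genes had median log2 changes of -0.43, -0.16, 0, 0.14 and 0.24. The family's medians were -0.45, -0.16, -0.25, -0.32 and 0.07, so it lay below all genes in the longest 3 bins. In the bin of 4347 to 6652 bases 2 of its 10 genes were above 0, where 61.6% of all genes were. All 22 genes of the family in the shortest bin were below 0, where 31.2% of all genes were above 0. With the length trend removed the family's median was -0.10, against 0.05 for all genes.

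Against HFD, the family in HFD+RE livers had the median of all genes, a value that turned with single HFD+RE libraries. In HFD+RE against HFD livers 0 genes of the family passed by edgeR (0.0109% of all genes did) or by DESeq2 (1.2% of all genes did). An unadjusted p below 0.05 was found for 0 of them by edgeR, against 8.77% of all genes. The median log2 change was 0.04, the same as for all genes, and values ran from -0.54 for Mrps6 to 0.45 for Mrpl3. Mrps6, of the small subunit, had 2.55, 5.65 and 7.07 CPM in HFD+RE, against 7.36, 5.96 and 8.85 CPM in HFD libraries, and Mrpl3, of the large subunit, had 21.8, 15.8 and 12.9 CPM, against 12.5, 15.9 and 8.68 CPM. In both, HFD+RE 3 was the library farthest from HFD. The groups did not overlap for 2 genes, both higher in HFD+RE (2.60%, against 14.1% of all genes). Without HFD+RE 3 the median was 0.24, with 68 of the 77 genes above 0, and without HFD+RE 4 it was -0.08, with 20 above 0, against 52 with all libraries. In these fits edgeR called 0 genes of the family, when 0.0158% (without HFD+RE 3) and 0.0371% (without HFD+RE 4) of all genes were called.

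The exercise groups were also set against each other. In HFD+RE against HFD+AE livers 0 genes of the family passed by edgeR, as for all genes (0%), and 0 by DESeq2 (0.154% of all genes did). By edgeR, 8 had an unadjusted p below 0.05 (8.02% of all genes did). The log2 change was above 0 for 72 of the 77 genes (51.2% of all genes), with a median of 0.37, against 0.01 for all genes, and the smallest adjusted p was 0.61. Length went with these changes too. In the shortest bin the median was 0.35 for all genes, 70.7% of them above 0, and 0.54 for the family. In the longest bin the medians were -0.17 and 0.18. With the length trend removed the family's median was 0.25, against 0.01 for all genes, with 67 of the 77 genes above 0. Mrpl52, of the large subunit, had the highest change. It had 14.8, 54.0 and 49.0 CPM in HFD+RE 3, 4 and 5, against 15.5, 15.2 and 35.1 CPM in HFD+AE 1, 2 and 3, so the groups overlapped (0.84, SE 0.41, adjusted p = 0.61). Leaving out 1 library gave medians of 0.19 (without HFD+RE 4) to 0.57 (without HFD+RE 3), with 0.26 without HFD+AE 1, 0.27 without HFD+RE 5 and 0.56 without HFD+AE 3. Without HFD+RE 3 and HFD+AE 3 the median was 0.78 and 59 genes were called, 58 of them higher in HFD+RE, when 22.1% of all genes were called; this value rests on 2 libraries a group, chosen as said above. Tested by edgeR over any difference among the 4 groups at once, 1 gene passed, Mrpl27 (adjusted p = 0.029, 1.30% of the family, against 6.62% of all genes). By DESeq2 18 passed (23.4% of the family, against 23% of all genes). At an unadjusted p below 0.05 it was 29 genes, where 30.2% of all genes were.

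Few other genes of mitochondrial translation passed in HFD against NC livers, 15.6% of all genes being called. Of 5 mitoribosome proteins with other names, among them Dap3, 0 passed (median log2 change 0.47). Of 13 translation factors 0 passed and 11 were below 0 (median -0.23), and Tufm, the elongation factor that brings tRNAs, had 62.8, 78.3 and 50 CPM in HFD, against 82.8, 89.6 and 63.2 CPM in NC libraries (adjusted p = 0.38). Of 27 genes for ribosome assembly and rRNA modification 1 rose, Mettl17, an assembly factor of the small subunit (0.51, SE 0.15, adjusted p = 0.042). Of 20 mitochondrial aminoacyl-tRNA synthetases 1 rose, Lars2, which charges leucine tRNA, with 1790, 1600 and 1710 CPM in HFD, against 556, 551 and 873 CPM in NC libraries (1.36, SE 0.28, adjusted p = 0.012).

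Of the RNAs transcribed in the mitochondrion itself, several rose in HFD against NC livers, where 8.38% of all genes tested did. Of 13 mitochondrial mRNAs 4 rose, mt-Nd4l (2.10, adjusted p = 0.0043), mt-Nd3 (1.42), mt-Co2 (1.57) and mt-Co3 (2.48), and 0 fell. These 4 were counted at low levels, with NC means of 10.5, 7.31, 40.8 and 22.5 CPM. The NC means were 23900 CPM for mt-Co1, 10900 for mt-Cytb and 5260 for mt-Nd1, none of which passed. Over the 13, 12 log2 changes were above 0 (median 0.61). Their median length was 784 bases, within the shortest length bin, where all genes had a median of 0.43 and 64.4% were above 0. How multiply mapping reads were handled is not given, and its part in the low levels of the 4 that rose was not tested. mt-Rnr2, the large-subunit rRNA, had 16300, 12700 and 20900 CPM in HFD, against 4730, 5700 and 6000 CPM in NC libraries, without overlap (1.60, SE 0.30, adjusted p = 0.0084). In the exercised libraries it had 4660, 7810 and 11200 CPM in HFD+RE and 6240, 5540 and 5780 CPM in HFD+AE, so HFD+AE 3 was not high for mt-Rnr2 as it was for the protein genes. mt-Rnr1, the small-subunit rRNA, had a log2 change of 0.94 (adjusted p = 0.083). Levels of rRNA depend on how the library preparation removed it, which is not given in the sources used here, and whether Lars2 shares reads with another gene was not tested.

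Among 10 genes known to regulate nuclear genes for mitochondrial proteins, 0 rose and 2 fell in HFD against NC livers. Nrf1 had 10.1, 9.87 and 9.14 CPM in HFD, against 10.8, 10.2 and 9.42 CPM in NC libraries (log2 change -0.07, adjusted p = 0.81), and Gabpa 30.9, 46.7 and 23.4 CPM, against 57.3, 57.7 and 48.7 CPM (-0.70, adjusted p = 0.24). Yy1 fell, with 60.6, 75 and 54.4 CPM in HFD, against 96.5, 95.1 and 93.4 CPM in NC libraries (-0.59, adjusted p = 0.028). Esrra and Ppargc1a had log2 changes of 0.22 and -0.29 and did not pass. Myc fell too (-2.45, adjusted p = 0.03), with 3.25, 3.51 and 2.32 CPM in HFD, against 2.12, 22.9 and 24.6 CPM in NC libraries, where NC 2 lay with the HFD libraries. Of 13 genes of mitochondrial transcription and RNA stability 1 fell, Lrpprc, which stabilises mitochondrial mRNAs. It had 72.4, 91.9 and 64.9 CPM in HFD, against 133, 143 and 138 CPM in NC libraries (-0.86, SE 0.24, adjusted p = 0.033). Tfam, of the same list, had a log2 change of 0.04 and did not pass. In HFD+AE against HFD livers 1 gene of all these lists passed, mt-Nd4l (-2.36, SE 0.34, adjusted p = 0.038), and in the comparisons with HFD+RE 0 did.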

How the data were processed

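The values were whole-number read counts per gene and an exon length per gene in 1 table, deposited by the authors with no scaling. They came from featureCounts 2.0.6 according to the header (per the file headers). The submitters' processing notes also name mm10, HISAT2 2.2.1, fastp and DESeq2 1.40.1. How strand and multiply mapping reads were handled, and which annotation release was used, is not given in the sources used here.

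From these counts, edgeR 4.0.16 (R 4.3.3) fitted 1 quasi-likelihood model with robust dispersion over all 12 libraries, after its low-count filter by group and TMM scaling. It tested 18305 genes. Genes were called at a Benjamini-Hochberg adjusted p below 0.05 over all of them. The test script was checked on simulated counts. Levels are TMM-scaled CPM (mean ± SD, 3 libraries a group), and FPKM for levels between genes, from the length in the table. The lowest count of a called gene in any library was 205 (Mrpl43). No 2 libraries agreed within sampling noise (smallest chi-square per degree of freedom 69.4).

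The genes and lists were chosen with earlier results of these data known. Named were a panel of 12 genes, up to 8 genes a direction that passed by smallest p, the highest and lowest log2 change in each comparison, the extremes of level and length, up to 3 called genes of each other list and 9 regulators and partners; genes named outside this rule are Mrpl39, Mrpl53, Mrps25, Mrps34 and Dap3. Motifs were searched in RefSeq GRCm38.p6 promoters. Alternatives were DESeq2 1.42.0, DESeq2's size factors, no filter, only the groups compared, a replicate block, length and GC trends removed by splines with 5 degrees of freedom, a 1.2-fold threshold, each library left out in turn, and HFD+AE 3 and HFD+RE 3 left out together.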

Additional observations from a re-analysis of the deposited data

How the results depend on the processing

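For HFD against NC, with 13 genes of the family called and a median log2 change of 0.52, the count was 20 by DESeq2, 49 with only the 2 groups compared, 8 with the length trend removed, 56 without HFD+AE 3 and HFD+RE 3 together and 1 at a 1.2-fold threshold, when 23.9%, 28.7%, 14.1%, 33.1% and 8.29% of all genes were called; the median was 0.34 with the length trend and 0.32 with the length and GC trends removed. Over the fits that left out 1 library the count ran from 0 to 36. All genes called moved too, from 2851 to 4364, 4928, 2587, 6258 and 1518. For HFD+AE against HFD the count of 0 became 6 by DESeq2, 2 without the low-count filter, 3 with 2 groups, 1 with length and GC trends removed and 48 without both libraries, when 12.1%, 3.04%, 3.75%, 2.74% and 22.5% of all genes were called. Leaving out 1 library gave 0 to 11 genes and a median of -0.55 to -0.18. In HFD+RE against HFD+AE the fit without both libraries gave 59 genes (22.1% of all genes were called) and a median of 0.78, against 0.19 to 0.57 when 1 library was left out. For any difference among the 4 groups the count of 1 became 18 by DESeq2, 7 without the filter, 4 with length and GC trends removed, 60 without both libraries, when 23%, 7.64%, 10.8% and 38.6% of all genes were called, and 0 to 47 without 1 library. The causes were not tested, except that fewer libraries or genes enter some of these fits. Mrpl44 in HFD against NC (log2 change -0.08) changed sign without HFD 3, and ran from -0.24 to 0.04 over the fits without 1 library. Of the fits of called single genes, 158 kept the call and 115 lost it in the same direction.

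With the library number as a replicate block the family had 0 genes called in HFD against NC (1.78% of all genes were called), with a median of 0.80. For any of the 4 groups 0 were called (0.186% of all genes). In HFD+RE against HFD its median was -0.35, and in HFD+RE against HFD+AE 0.01, with 54.5% of the family above 0. Libraries with the same number deviated from their group means with correlations of -0.50 to 0.16, so the numbers are not taken to pair the libraries.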

Other observations

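The 6 pseudogenes left out by the naming rule had few counts. Mrpl23-ps1 had 2, 18 and 37 counts in HFD+RE 3, 4 and 5, 20, 38 and 10 in HFD+AE 1, 2 and 3, 15 to 39 in the HFD libraries, and 3, 3 and 8 in NC 2, 4 and 5. Mrpl27-ps had 31 to 115 counts in the HFD+RE, 41 to 105 in the HFD+AE, 47 to 67 in the HFD and 45 to 66 in the NC libraries, while Mrpl27 itself had 918 to 3546 counts per library. Mrps36-ps3 had 0 counts in all 12 libraries. Whether reads of a gene were counted on its pseudogene was not tested.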
